A study of Homo sapiens with 6 samples.

Results

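H3K27ac was mapped in Jurkat and 6T-CEM, human cell lines of T-cell acute lymphoblastic leukaemia (T-ALL), and the regions described here are those acetylated in both Jurkat libraries with no peak in 6T-CEM. They were selected on measured values, the presence and absence of called peaks: overlapping peaks of the 3 lists were joined into union regions, and a region was kept when it held a peak of Jurkat replicate 1 and of Jurkat replicate 2 and none of 6T-CEM. This gave 1586 Jurkat-only regions of 49528 union regions, or 3.2%. They were 15.5% of the 10206 regions with peaks in both Jurkat libraries (95% Clopper-Pearson interval 14.8 to 16.3, counting error only). The presence of Jurkat peaks and the absence of 6T-CEM peaks are therefore the rule and not a finding, and no test was computed on them.

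The series held 6 samples, of which 3 were H3K27ac libraries, a single one from 6T-CEM and the others replicates 1 and 2 of Jurkat, and 3 were IgG controls that were not analysed here. GNE-987, an inhibitor of BET bromodomain proteins, is in its title and a dose of 10 nM over 24 h in its design text, but no sample label names a treatment, so the treatment of each library is unknown. Separate cultures are not stated for the replicates of Jurkat, and each cell line stands for a single patient's leukaemia. With 1 library, 6T-CEM has no replicate spread, and a missing peak means only that none was called at the depth of that library, which the peak lists do not give.

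The libraries were unequal. Counting chromosomes 1 to 22 and X, 16159 peaks over 16.2 Mb were called in Jurkat replicate 1, 32097 over 27.6 Mb in Jurkat replicate 2 and 35154 over 34.3 Mb in 6T-CEM. Of 10 T-cell marker genes, all 10 had a peak in the gene or within 25 kb in every library. Of 8 cortical thymocyte markers, 8, 7 and 7 did in Jurkat replicate 1, replicate 2 and 6T-CEM. PAX5, EBF1 and MS4A1, which define B cells, CEBPA of myeloid cells, HBB of red cells, and NCAM1 and EOMES of NK cells had none in any library. In the order of libraries above, peaks stood at 2, 3 and 3 of 6 B-cell markers, 3, 4 and 5 of 6 myeloid markers, 1, 3 and 2 of 5 NK-cell markers, 2, 3 and 2 of 5 erythroid markers, and 2, 4 and 4 of 7 markers of tissues outside the blood.

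Acetylation of lysine 27 on histone H3 is laid down by the coactivators p300 and CBP at active promoters and enhancers, and BET proteins bind acetylated histones through their bromodomains. A promoter carries the mark around the start of its gene, whereas enhancers lie inside genes or between them and differ much more from cell type to cell type. In T-ALL the cells are blocked at a stage of thymocyte development, and the enhancers that are active tend to reflect that stage and the oncogenic transcription factors, such as TAL1, that drive the leukaemia.

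Some Jurkat-only regions lay over annotated gene starts, and the bases before 6 of these starts are shown because they span the kinds of promoter involved. DNTT, CD1A, CD1D and CD2 are genes of the T lineage, and the starts shown for them hold few CpG dinucleotides. CWC25, a spliceosome gene, and R3HDM4, which encodes an R3H-domain protein, hold many and lay under 2 of the 12 Jurkat-only regions of highest fold. The sequences are from RefSeq (GRCh38.p14, the same build as hg38), 250 bases that end just before the start, 5′ to 3′ on the strand of the gene, with each CpG in capitals. They lie at chr10:96304184-96304433 (DNTT, plus strand), chr1:158254174-158254423 (CD1A, plus), chr1:158179697-158179946 (CD1D, plus), chr1:116754180-116754429 (CD2, plus), chr17:38825322-38825571 (CWC25, minus) and chr19:913220-913469 (R3HDM4, minus).
DNTT: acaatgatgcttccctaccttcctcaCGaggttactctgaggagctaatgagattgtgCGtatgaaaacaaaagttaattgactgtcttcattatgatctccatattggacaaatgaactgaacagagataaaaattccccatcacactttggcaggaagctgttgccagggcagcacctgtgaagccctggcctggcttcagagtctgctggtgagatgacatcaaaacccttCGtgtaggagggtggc
CD1A: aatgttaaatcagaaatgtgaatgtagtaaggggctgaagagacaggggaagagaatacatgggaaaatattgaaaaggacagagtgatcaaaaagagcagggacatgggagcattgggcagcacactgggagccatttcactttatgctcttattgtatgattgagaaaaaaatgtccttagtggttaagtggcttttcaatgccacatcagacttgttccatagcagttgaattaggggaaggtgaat
CD1D: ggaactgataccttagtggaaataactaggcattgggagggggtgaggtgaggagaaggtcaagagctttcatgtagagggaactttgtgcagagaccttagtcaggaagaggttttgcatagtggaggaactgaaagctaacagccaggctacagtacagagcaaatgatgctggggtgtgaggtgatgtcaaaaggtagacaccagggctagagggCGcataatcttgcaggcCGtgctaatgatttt
CD2: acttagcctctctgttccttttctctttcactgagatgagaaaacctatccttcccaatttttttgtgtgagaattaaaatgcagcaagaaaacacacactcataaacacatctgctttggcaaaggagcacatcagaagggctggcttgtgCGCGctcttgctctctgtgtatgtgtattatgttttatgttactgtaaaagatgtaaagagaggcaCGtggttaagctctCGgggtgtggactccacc
CWC25: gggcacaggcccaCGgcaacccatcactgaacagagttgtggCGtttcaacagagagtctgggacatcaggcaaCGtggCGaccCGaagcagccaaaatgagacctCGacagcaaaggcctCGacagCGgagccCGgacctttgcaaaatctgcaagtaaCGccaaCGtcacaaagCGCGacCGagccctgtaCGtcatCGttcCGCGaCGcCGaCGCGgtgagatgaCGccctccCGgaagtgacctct
R3HDM4: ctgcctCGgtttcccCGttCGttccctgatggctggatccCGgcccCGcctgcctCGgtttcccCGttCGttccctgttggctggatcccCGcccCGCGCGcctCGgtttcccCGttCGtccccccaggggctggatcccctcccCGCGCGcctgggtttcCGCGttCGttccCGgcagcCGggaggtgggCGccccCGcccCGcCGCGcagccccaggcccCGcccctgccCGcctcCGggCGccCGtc

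The DNTT, CD1A, CD1D and CD2 stretches held 3, 0, 2 and 4 CpG, at 46.4%, 40.4%, 48.4% and 42.8% G or C. Those of CWC25 and R3HDM4 held 24 and 33 CpG, at 60% and 76.8%. Of 8 short motifs searched on both strands, the DNTT stretch held the GATA motif AGATAA, the CD2 stretch the E-box CAGATG, the CWC25 stretch the ETS motif CCGGAA and the R3HDM4 stretch the GC box GGGCGG. None of the 8 was found in the CD1A and CD1D stretches. A match describes these letters only, and its use by a factor was not tested.

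Taken over all promoters, the Jurkat-only starts were CpG-rich. The start table holds 15811 protein-coding genes outside chromosome 8, of which 346, or 2.19%, had a start under a Jurkat-only region. A further 74 lncRNA genes had one, a count given without the share over all lncRNA genes. For comparison, 4162 of the protein-coding genes (26.3%) had a start under a region of all libraries and 589 had one under a region of 6T-CEM alone. The 397 starts under Jurkat-only regions had a median of 26 CpG in the table's window of 300 bases (250 before and 50 after the start), against 28 for starts under regions of all libraries, 22 for those under 6T-CEM-only regions and 21 for all 22131 starts. Fewer than 10 CpG were present in 5.04% of Jurkat-only starts, 7.51% of starts under all-library regions, 21.2% of 6T-CEM-only starts and 29.9% of all starts.

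In that window, the ETS motif CCGGAA was present at 46.6% of Jurkat-only starts, 35.9% of all-library starts, 21.9% of 6T-CEM-only starts and 21.2% of all starts. The cyclic AMP response element TGACGTCA was present at 6.30%, 3.74%, 0.86% and 2.26% in the same order, and the GC box GGGCGG at 74.8%, 71.1%, 64.3% and 56.3%. Both of the first motifs contain a CpG, as does the GC box, and CpG content differed between the sets as given above. Motifs without a CpG were no more frequent than over all starts. The GATA motif AGATAA was at 3.78% against 7.88% of all starts, the RUNX motif TGTGGT at 7.30% against 11.3%, the E-boxes CAGCTG and CAGATG at 15.9% against 18.0% and 7.05% against 12.2%, and the TATA box TATAAA at 2.52% against 9.46%.

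Only 20 starts of 19 genes under Jurkat-only regions held fewer than 10 CpG. Besides DNTT, CD1A, CD1D and CD2, they include CD1C, which encodes a further lipid-presenting molecule, CD48, an adhesion and ligand gene of lymphocytes, CTSG, the gene of the protease cathepsin G, FCGRT, the neonatal Fc receptor gene, and PSMC2, a proteasome ATPase gene. CD1D has another start under the same region, not shown above, which held 12 CpG. CTSG, FCGRT and PSMC2 were chosen for mention after their values were seen. The regions over these CpG-poor starts had a median width of 1873 bp and lay a median of 64.0 kb from the nearest 6T-CEM peak. Those over the other 377 starts, of 332 genes, had a median width of 1070 bp and a distance of 27.8 kb. Median folds in replicates 1 and 2 were 6.29 and 4.72 at CpG-poor starts and 5.73 and 4.03 at the others.

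Compared with regions that 6T-CEM shared, Jurkat-only regions were narrower and had lower called values. These measures are not independent of the rule, since a wider region has more bases at which a 6T-CEM peak can meet it. How much of the difference follows from the rule was not tested. Fold here is the enrichment that the authors' peak caller gave a peak, and a region takes its highest peak in each library. The median width was 922 bp, against 1664 bp for the 8620 regions with peaks in all libraries, which can also be widened by 6T-CEM peaks. Across the Jurkat-only regions the fold in replicate 1 had a median of 5.09, quartiles of 4.30 and 6.10 and a highest value of 13.7. In replicate 2 it had a median of 4.70, quartiles of 3.64 and 6.09 and a highest value of 26.2. In all-library regions the medians were 5.68 and 5.10. The median −log10 q was 5.69 in replicate 1 and 8.33 in replicate 2, against 8.82 and 12.8 in all-library regions. In 749 Jurkat-only regions (47.2%) the −log10 q reached 5 in both libraries, as it did in 74.0% of all-library regions.

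In each Jurkat-only region, peaks of the Jurkat libraries overlap by the rule, while their heights differed. In 1446 Jurkat-only regions (91.2%) each library had exactly 1 peak. Their summits lay within 200 bp of each other in 61.6% of Jurkat-only regions, with a median distance of 142 bp, against 56.0% and 160.5 bp in all-library regions. Replicate 1 had the higher fold in 891 regions and replicate 2 in 695. The log2 ratio of the folds, replicate 1 over replicate 2, had an SD of 0.59. Across these 1586 regions, the folds of the libraries had a Pearson correlation of 0.20 on the log2 scale and a Spearman correlation of 0.18, and the points share their libraries and the selection of called peaks. The covered bases came to 1.32 Mb in replicate 1, or 8.12% of all bases in its peaks, and 1.38 Mb in replicate 2, or 4.98%.

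**Figure D1:**
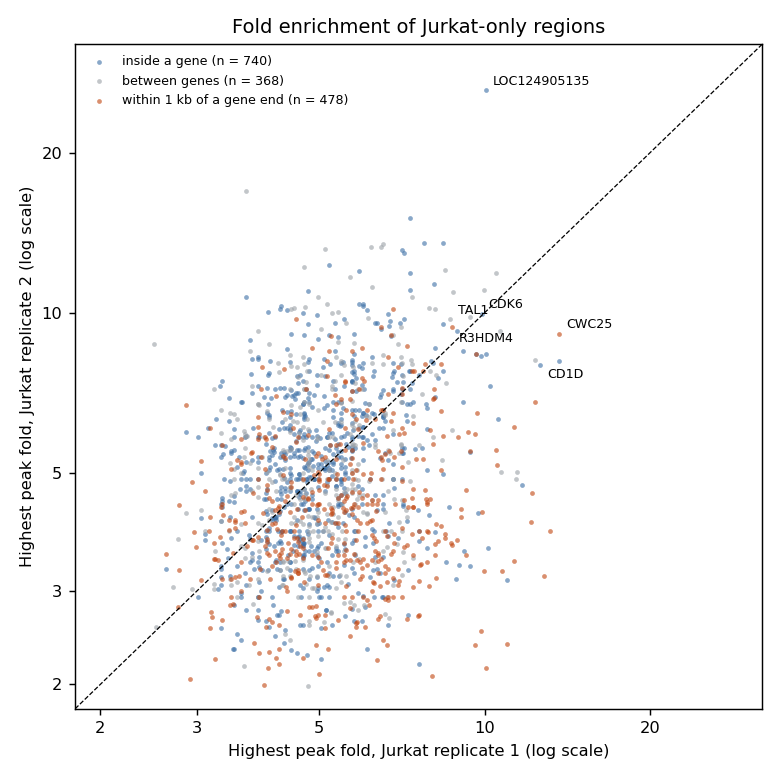
Each point is 1 of the 1586 Jurkat-only regions, with the highest peak fold in Jurkat replicate 1 on the horizontal axis and in Jurkat replicate 2 on the vertical axis, both on log scales; colour gives the position relative to protein-coding genes and the dashed line marks equal folds. Points spread widely on both sides of the line (891 below, 695 above), and regions within 1 kb of a gene end lie mostly to the lower right, with medians of 5.47 in replicate 1 and 4.05 in replicate 2.

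By position, 478 Jurkat-only regions (30.1%) lay within 1 kb of an annotated end of a protein-coding gene, 740 (46.7%) inside a gene and 368 (23.2%) between genes. The interval of the first share was 27.9 to 32.5%. Among all-library regions 51.3% lay at a gene end, and among 6T-CEM-only regions 11.9%. The share differed with the Jurkat library. It was 33.2% of regions found in replicate 1 alone and 7.99% of those found in replicate 2 alone, and membership requires a peak in replicate 1. A gene start in the narrow sense lay under 308 of the 1544 Jurkat-only regions outside chromosome 8 (19.9%), 43.8% of all-library regions and 3.79% of 6T-CEM-only regions.

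The libraries differed in which positions they marked more strongly. At gene ends the median fold was 5.47 in replicate 1 and 4.05 in replicate 2. Inside genes it was 4.89 and 5.10, and between genes 5.05 and 4.86. Replicate 1 thus exceeded replicate 2 by most at gene ends and was the lower library inside genes.

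**Figure D2:**
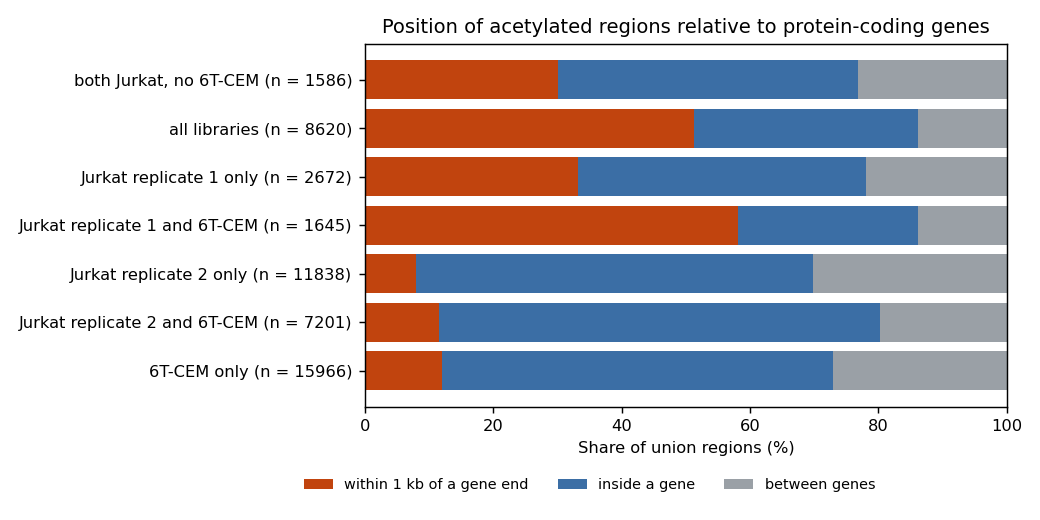
Bars give the share of union regions, in %, that lie within 1 kb of an annotated end of a protein-coding gene, inside a gene or between genes, for each combination of libraries with a peak. Gene ends make up 30.1% of the Jurkat-only regions, 51.3% of the all-library regions and 11.9% of the 6T-CEM-only regions. The classes with a replicate 1 peak run from 30.1% to 58.2%, and those without one from 7.99% to 11.9%.

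Jurkat-only regions lay both beside and far from acetylation in 6T-CEM. Distances of other Jurkat regions are not given, so the shares below are not read as high or low. The distance to the nearest 6T-CEM peak ran from 22 bp to 2904 kb with a median of 11.6 kb. It was at most 1 kb for 207 regions (13.1%), at most 10 kb for 755 (47.6%) and at most 50 kb for 1143 (72.1%). Regions inside genes were nearest, with a median of 6.20 kb, followed by those between genes with 14.1 kb and those at gene ends with 20.1 kb. Of the 755 regions within 10 kb of a 6T-CEM peak, 21.6% lay at a gene end, against 37.9% of the 831 regions farther away. In 593 cases (37.4%) a region of all libraries lay within 10 kb, whether or not it held the nearest 6T-CEM peak.

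The edge of the rule can be read from single regions. Just inside it, a region at NPM1, the nucleophosmin gene, lay 23 bp from a 6T-CEM peak. Just outside it, regions at THAP11, FLYWCH2 and TTC7A shared 27, 30 and 77 bases with one. The Jurkat folds on the inner side (4.03 and 4.65 at NPM1) were of the same order as those on the outer side (5.03 and 4.07 at THAP11, 7.58 and 4.22 at FLYWCH2, 5.48 and 5.25 at TTC7A).

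**Figure D3:**
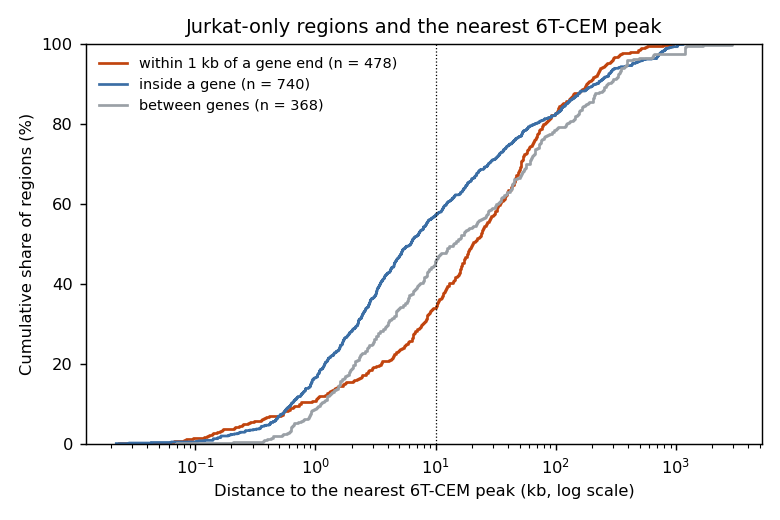
The cumulative share of Jurkat-only regions, in %, is plotted against the distance in kb (log scale) to the nearest 6T-CEM peak, for regions at gene ends, inside genes and between genes; the dotted line marks 10 kb. At 10 kb the curve for regions inside genes has reached 57.2%, that for regions between genes 45.9% and that for gene ends 34.1%.

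Most Jurkat-only regions stood alone, but some formed runs. With regions 10 kb or less apart joined, 1102 had no Jurkat-only neighbour and 238 (15.0%) fell into 60 clusters of 3 or more. The same counts for other classes of regions are not given, so these are not read as high or low. The largest cluster held 11 regions over 56.6 kb inside PRKCA, the gene of protein kinase C alpha, at chr17:66498678-66555302, where they covered 13317 bp in replicate 1 and 13167 bp in replicate 2 with folds of up to 7.98 and 13.5. The nearest 6T-CEM peak was 689.3 kb away.

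DNTT, whose enzyme adds nucleotides to the junctions of antigen receptor genes in immature lymphocytes, carried 7 regions that ran from before its start into its body, at chr10:96295476-96315428. They covered 15326 bp in replicate 1 and 8126 bp in replicate 2. The highest folds were 7.59 and 13.2, the latter in a region 2.65 kb outside the gene. 6T-CEM had no peak within 164.6 kb.

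BCL11B, a zinc finger factor gene needed for T-cell commitment, had 7 regions over 20.6 kb toward one end of the gene, at chr14:99183924-99204493, with 6764 bp and 9640 bp. Unlike DNTT, BCL11B was also acetylated in 6T-CEM, with 8 peaks over 9619 bp in the gene or within 25 kb, the nearest of them 48.8 kb from the cluster. The Jurkat-only regions were 7 of the 11 regions there that both Jurkat libraries shared.

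RFX8, a gene of the RFX family of DNA-binding proteins, had 10 regions over 26.7 kb at chr2:101426793-101453536, with 9064 bp and 8247 bp. Here a 6T-CEM peak stood within the cluster itself, 199 bp from the nearest Jurkat-only region. SPSB4, which encodes a substrate receptor of ubiquitin ligases, had 8 regions with 8599 bp and 12241 bp, and FRMD4A, a scaffold protein gene, had 6 with 10175 bp and 11624 bp. Their nearest 6T-CEM peaks lay 100.9 kb and 44.3 kb away.

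Among the 10 largest clusters, the replicates differed most at PMEPA1, which encodes a membrane protein that dampens TGF-beta signalling. Its 9 clustered regions covered 6809 bp in replicate 1 and 29228 bp in replicate 2, with folds of up to 4.90 and 10.0. SYK, a tyrosine kinase gene of immune receptor signalling, had 6 clustered regions with 7128 bp and 6784 bp over 15.2 kb from one end of the gene inwards, at chr9:90801165-90816393. The last of the 10 clusters lay at the lncRNA gene LINC01248, 18.3 kb from SOX11, a developmental transcription factor gene. It had 5 regions with 7683 bp and 4666 bp, and the nearest 6T-CEM peak was 1177 kb away.

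PRKCA, SYK and PMEPA1 share a feature that bears on how they can be read. Each lies in a stretch of at least 500 kb in which 6T-CEM had no peak at all while each Jurkat library had 10 or more. The stretch on chromosome 9 spanned 1521 kb with 10 Jurkat-only regions, that on chromosome 17 spanned 2064 kb with 22, and that on chromosome 20 spanned 816 kb with 19. Together they held 51 of the 1586 regions (3.22%). In such stretches, DNA lost from 6T-CEM and DNA present without the mark cannot be told apart from peak lists. DNTT, BCL11B, RFX8, SPSB4 and FRMD4A lie outside them. The stretches needed 10 or more peaks of each Jurkat library, so other long gaps in 6T-CEM peaks are not among them. The same limit holds in such gaps, as at SOX11 (1153 kb or more from a 6T-CEM peak) and LMO1 (280.0 kb).

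**Figure D4:**
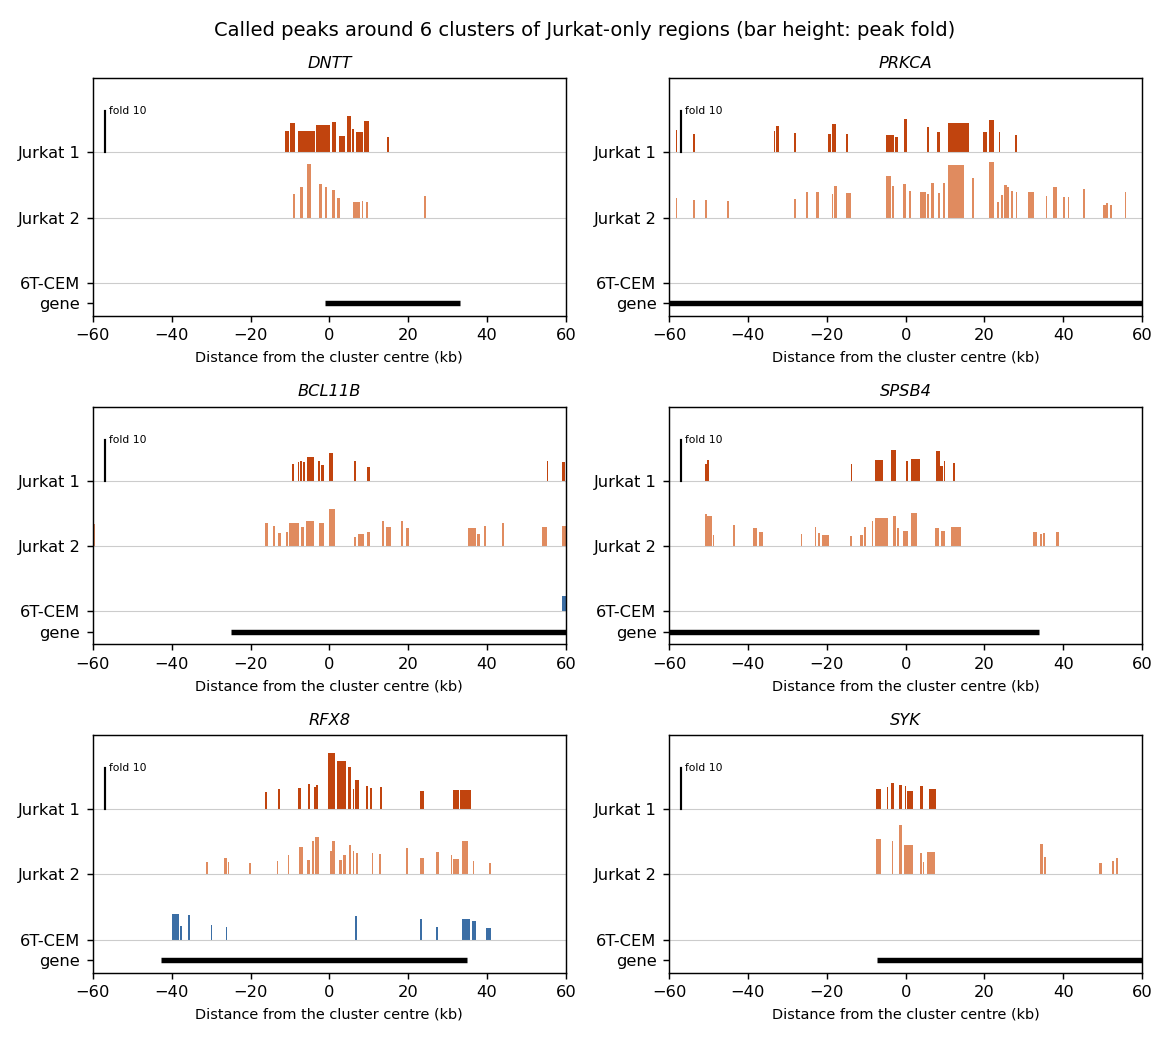
Bars are called peaks within 60 kb of the centre of 6 clusters, placed by distance from the centre in kb, with height giving the fold (scale bar, fold 10), in 1 row per library (Jurkat 1 and 2 are the replicates of Jurkat), and the black line is the gene. The 6T-CEM row is empty at DNTT, PRKCA, SPSB4 and SYK, reaches the edge of the window at BCL11B and holds peaks on both sides of and inside the cluster at RFX8.

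The regions of highest fold were ranked by the lower of the Jurkat libraries. First came a region over the variable segment TRAV18 in the T-cell receptor alpha locus, chr14:22002609-22004027, with 10.5 in replicate 1 and 11.9 in replicate 2. The next, inside LOC124905135 and the lncRNA LINC02939 at chr22:46068948-46072853, had 10.0 and 26.2, the highest fold of the set, and covered an annotated start of LOC124905135. A region in the lncRNA LOC729296, 49.7 kb from the cadherin gene CDH26, had 9.99 and 11.0.

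CDK6, a cell-cycle kinase gene, had a region with 9.87 and 9.95, although the peak was 5731 bp wide in replicate 1 and 556 bp in replicate 2. CWC25 had 13.7 and 9.13 at its start, and R3HDM4 8.71 and 9.39, the starts whose sequences are printed above. ARHGEF6, an exchange factor gene for Rac GTPases, had 8.91 and 9.23 inside the gene. Others lay between genes, near GGTLC1 (9.39 and 9.82), GPR26 (8.76 and 10.9), TAL1 (8.66 and 9.71) and ZNF429 (8.48 and 12.02). Among these named regions the distance to the nearest 6T-CEM peak ran from 1.95 kb (TAL1) to 151.5 kb (GPR26).

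By covered bases the order was different, and 3 regions were on both lists. The widest in both libraries, at chr20:57832805-57841965 in the blank stretch near PMEPA1, covered 7634 bp in replicate 1 and 9161 bp in replicate 2. TAL1 held the regions ranked 2 and 4. CD1D, which encodes a molecule that presents lipids to NKT cells, had a region over annotated starts inside the gene, 1436 bp from the nearest gene end. This region, chr1:158179466-158184320, had 4855 bp and 3676 bp and folds of 12.6 and 7.96. MOCS1, a molybdenum cofactor gene, had 3667 bp and 3600 bp with folds of 7.92 and 4.16. The others were at RTL6, PRKCA, LOC124905135, NXT1, CIMIP1, FRMD4A and ZNF429, with 3727 to 5203 bp in replicate 1 and 3649 to 6039 bp in replicate 2.

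Gene lists place the regions against T-cell biology. A gene was counted when a Jurkat-only region lay in it or within 25 kb of it, which held for 2019 of 19817 protein-coding genes, or 10.2%. Among the 9343 genes with any region of both Jurkat libraries, the share was 21.6%. Only such genes can be counted, and the lists differed in how many they held. They were 14 of 16 genes of immature thymocytes and 17 of 20 of the TAL1 circuit. In TGF-beta and growth factor signalling they were 7 of 20, and among housekeeping genes 10 of 12. Among myeloid and non-blood genes they were 4 of 12 and 3 of 14. For 688 genes the Jurkat-only regions were the only regions there that both Jurkat libraries had. The median number of Jurkat-only regions per gene was 0 over all genes. It was 0.5 in the lists of immature thymocytes and of the TAL1 circuit, and 0 in the other 12 lists. Neighbouring genes share regions, and long genes can hold more of them, so the counts below describe the lists and no test was run on them. A gene is said to lose its regions when none was left under other settings: peaks with a −log10 q of 5 or more in each library, peak lists shortened to equal length by q, an overlap of at least 50% of the shorter peak, or peaks within 1 kb joined.

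Genes of immature thymocytes had a Jurkat-only region in 8 of 16 cases. Besides the DNTT regions described above, they lay at all 5 CD1 genes, which encode molecules that present lipid antigens and sit side by side on chromosome 1. CD1D had 2, which were the only regions of both Jurkat libraries there, and no 6T-CEM peak lay within 61.3 kb of them. At CD1C the region over the start, chr1:158287944-158291202, had folds of 10.5 and 5.51 but covered 3259 bp in replicate 1 and 304 bp in replicate 2. CD1A had 2 regions with 3621 bp and 1939 bp in all, CD1B 3 and CD1E 3, some of them shared between these neighbours. CD1A, CD1B, CD1C and CD1E each had 1 to 6 peaks of 6T-CEM within 25 kb, the nearest 1.75 kb to 2.12 kb from a Jurkat-only region, and CD1A and CD1C had no Jurkat-only region left when peaks within 1 kb were joined. PTCRA, the pre-T-cell receptor gene, and ADA, adenosine deaminase, had small regions next to 6T-CEM peaks, 3.67 kb and 2.82 kb away, and that of PTCRA was lost with a −log10 q of 5 or more. The regions counted for ADA lay inside the nearby gene PKIG. RAG1 and RAG2, the recombinase genes, had none.

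Of the TAL1 circuit and its partners, 10 of 20 genes had a Jurkat-only region. TAL1, the basic helix-loop-helix factor that drives many T-ALL cases, had 2. The first, chr1:47222757-47230411 inside the gene, had folds of 7.33 in replicate 1 and 15.1 in replicate 2, and covered 4122 bp and 7271 bp. The second, chr1:47233638-47242525, lay 1.30 kb beyond the same end of the gene, from which the first lay 1924 bp inwards, with folds of 8.66 and 9.71 and 6702 bp and 7721 bp. Neither region was far from 6T-CEM acetylation. A 6T-CEM peak of 832 bp lay 443 bp from the first and 1.95 kb from the second, and neither was left when peaks within 1 kb were joined. STIL, the neighbouring centriole gene, had a region of its own at its far end with folds of 7.09 and 3.93, 19.4 kb from a 6T-CEM peak. At the TAL1 and STIL regions too, DNA lost from 6T-CEM and DNA present without the mark cannot be told apart from peak lists.

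LMO1, a LIM-only protein that works with TAL1, had 1 region at the gene end, chr11:8267722-8269684, with 7.73 and 5.31 and 1608 bp and 1825 bp. It was the only region there of both Jurkat libraries, and the nearest 6T-CEM peak was 280.0 kb away. At CDK6, by contrast, 8 of 25 regions shared by the Jurkat libraries lacked 6T-CEM. The first replicate had 14376 bp in them and the second 4140 bp, and 6T-CEM had 28 peaks at the gene. RUNX1 and ETV6, transcription factor genes of blood cells, had 2 of 23 and 1 of 37 regions that were Jurkat-only, and the E-protein genes TCF3 and TCF12 had 1 of 6 and 1 of 4. GATA3, MYB, LMO2 and LYL1 had none. The regions at RUNX1, ETV6 and TCF3 were lost when peaks within 1 kb were joined, and that at TCF12 when an overlap of 50% was asked for.

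Among T-lineage transcription factors, 10 of 35 genes had a Jurkat-only region. After BCL11B, SOX11 had most, with 4 regions of 7870 bp and 5323 bp, including 1 in the gene itself with folds of 8.62 and 4.31. KLF2, a factor of T-cell trafficking, had a region 8.58 kb outside the gene with 5.88 and 4.86, and 6T-CEM had no peak within 17.4 kb of it. ID3, an inhibitor of E proteins, had 2, of which that at the gene end had 5.58 and 7.42 and lay 2.80 kb from a 6T-CEM peak. The region counted for FOXP3 lay at the start of its neighbour CCDC22. ETS1, SATB1, SOX4 and RORA had 1 or 2 regions each, 0.321 kb to 7.16 kb from a 6T-CEM peak. Those of SATB1 and SOX4 were lost with a −log10 q of 5 or more, and that of ETS1 when peaks within 1 kb were joined. TCF7, LEF1 and IKZF1 had none, although both Jurkat libraries shared 4, 8 and 12 regions there with 6T-CEM.

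Of 33 T-cell surface and receptor genes, 8 had a Jurkat-only region. CD3D, CD3E and CD3G, the neighbouring subunit genes of the T-cell receptor complex, had up to 2 in common, the larger of which, chr11:118315010-118319879, had folds of 7.07 and 7.21 and covered 4870 bp and 2329 bp. Other regions there were common to the lines, and the nearest 6T-CEM peak was 6.67 kb away. CD2, an adhesion receptor gene, had 4 of 6, among them the region over its start with 5.97 and 8.58. CD48 had 1 region, over its start, with 6.80 and 10.2 and 1877 bp and 617 bp, and 6T-CEM had no peak within 80.5 kb. CXCR4, a chemokine receptor gene, CD27 and SLAMF1 had 1 each, within 3.75 kb of a 6T-CEM peak, and that counted for CD27 lay inside its neighbour TAPBPL. The CXCR4 region was lost with peak lists of equal length and with an overlap of 50%, and those of CD27 and SLAMF1 with a −log10 q of 5 or more. CD4, CD5, CD6, CD7 and CD28 had none. CD2 had no Jurkat-only region left when peaks within 1 kb were joined.

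Among 30 receptor signalling genes, 9 had one. SYK had 7 of 7 regions and no 6T-CEM peak, in the stretch described above. ARHGAP25, which encodes a GTPase-activating protein of blood cells, had 5 of 5 with 3993 bp and 3545 bp and folds of up to 10.1 and 8.35, whereas 6T-CEM had a single peak of 905 bp. VAV1, an exchange factor gene, had 3 of 6. PRKCQ, INPP5D, LAT, PTPN6 and SLA2 had 1 or 2 each, 0.066 kb (LAT) to 3.795 kb (INPP5D) from a 6T-CEM peak. Of these, INPP5D, LAT and SLA2 lost theirs with a −log10 q of 5 or more, LAT and SLA2 also with peak lists of equal length, and LAT and PTPN6 when peaks within 1 kb were joined. The region counted for LAT lay at the end of SPNS1, those for PTPN6 at PHB2 and that for SLA2 inside TGIF2. The T-cell kinase genes LCK and ZAP70 had none, with 3 regions each shared by all libraries.

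Members of TGF-beta and growth factor signalling had a Jurkat-only region in 6 of 20 cases. The ligand gene TGFB1 was counted through a region at the start of its neighbour B9D2, and the receptor gene TGFBR2 had a small one with 4.61 and 7.62. The inhibitory gene SMAD6 had 9 of 11 regions, covering 5519 bp (replicate 1) and 11475 bp (replicate 2), with folds of up to 6.67 and 6.96, and 6T-CEM had 3 peaks over 2391 bp there. SMAD3, a signal transducer, and SKI, a co-repressor, had 1 each. With a −log10 q of 5 or more TGFBR2 and SMAD3 had none left, and SMAD3 had none with peak lists of equal length. PMEPA1 had 10 of 10, in the stretch without 6T-CEM peaks, of which 1 lay nearer to ZBP1.

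In the remaining lists the counts were 0 to 2 genes, to be read against the 10.2% of all protein-coding genes. NOTCH pathway genes had 2 of 21 (9.52%, HES4 and IGF1R), homeobox and related oncogenes 2 of 19 (10.5%, MEF2D, and SIX6 with 2 regions of 4742 bp and 4863 bp at its gene end), B-cell genes 2 of 14 (14.3%, POU2AF1, and BLNK through the outermost DNTT region), NK-cell genes 1 of 10 (10%, GZMB) and erythroid genes 2 of 11 (18.2%, GATA1 and KLF1). The last were counted through regions at the ends of HDAC6 and DNASE2. Myeloid and non-blood genes had 0 of 12 and 0 of 14, of which only 4 and 3 had any region of both Jurkat libraries. Of 12 housekeeping genes, 2 (16.7%) had a Jurkat-only region. TBP, the TATA-binding protein gene, had 2, which lay at the ends of PSMB1 and PDCD2, the former reaching the TBP end as well. 6T-CEM had no peak within 173.5 kb of them. With a −log10 q of 5 or more IGF1R, MEF2D, POU2AF1, GZMB and KLF1 lost their regions. MEF2D, POU2AF1 and KLF1 lost theirs with peak lists of equal length as well, and KLF1 with an overlap of 50%.

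**Figure D5:**
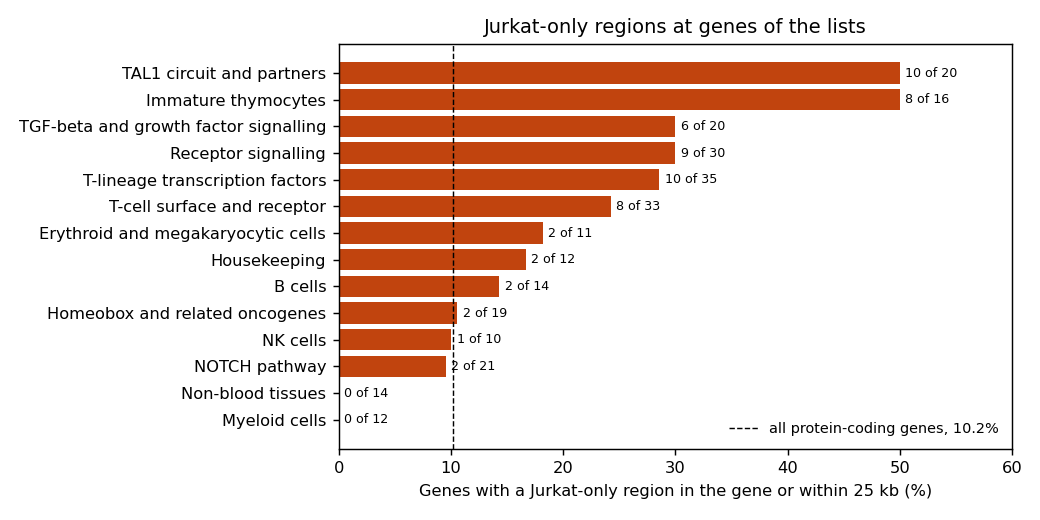
Bars give, for 14 gene lists, the share of genes in % with a Jurkat-only region in the gene or within 25 kb, with the counts beside them; the dashed line is the share of all protein-coding genes, 10.2%. The lists of immature thymocytes (8 of 16) and of the TAL1 circuit (10 of 20) have the longest bars, and the myeloid and non-blood lists are at 0. Any region of both Jurkat libraries, which a counted gene needs, lay at 14, 17, 4 and 3 genes of these lists, in the same order.

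T-cell receptor loci held Jurkat-only regions among regions of 6T-CEM. Each receptor gene is assembled from segments by DNA rearrangement, so the DNA there can differ between cell lines. In the alpha locus (TRA) 4 of 5 regions of both Jurkat libraries lacked 6T-CEM, in the beta locus (TRB) 10 of 13, and in the gamma locus (TRG) 6 of 10. The share over all regions of both libraries was 15.5%. 6T-CEM had 4, 21 and 5 peaks in these loci, over 4311, 34363 and 5872 bp. The TRG regions formed a cluster of 6 over the variable segments, with 5739 bp in replicate 1 and 4769 bp in replicate 2. Rearranged, deleted and unacetylated DNA cannot be told apart here.

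Between the outermost HLA class I and class II genes on chromosome 6, chr6:29723434-33089696, 10 of 24 regions of both Jurkat libraries were Jurkat-only, and 6T-CEM had 38 peaks. This locus is highly variable between people, and the reference holds alternate copies of it. Peaks on alternate contigs of chromosome 6, which are left out of the regions, numbered 155, 227 and 255 in Jurkat replicate 1, replicate 2 and 6T-CEM, and their part in these 10 regions was not tested. By chromosome, the share of both-Jurkat regions without 6T-CEM was highest on chromosome X, with 53 of 218 (24.3%, interval 18.8 to 30.6), and chromosome 20, with 22.1% (18.4% outside the blank stretch). It was lowest on chromosome 4, with 8.55%, and chromosome 12, with 9.20%.

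Some gene families were read at their starts after the values had been seen. Of 44 proteasome genes in the start table, 5 had a start under a Jurkat-only region (PSMA5, PSMB4, PSMC2, PSMD13 and PSMF1), against 2.19% of all genes, and 28 had one under an all-library region. PSMC2, also named among the CpG-poor starts, had folds of 12.3 in replicate 1 and 6.80 in replicate 2, and lay 2.45 kb from a 6T-CEM peak. None of 66 cytosolic ribosomal protein genes had one, and 60 lay under all-library regions. Zinc finger genes (ZNF) had 10 of 437, genes of respiratory complex I 2 of 40, and HLA genes 1 of 16, HLA-C. Of 1558 microRNA hairpins, 5 lay under Jurkat-only regions, those of MIR564, MIR326, MIR3652, MIR4727 and MIR1227, with MIR4727 within the CWC25 region. The share of hairpins under other regions is not given, so this count is not read as high or low.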

How the data were processed

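The data were 3 H3K27ac peak lists, called per library, 2 from Jurkat and 1 from 6T-CEM. The tools were Bowtie2 2.2.5 and MACS2 2.2.7 with build hg38, per the submitters' processing notes. Not given in the sources used here are the options and any use of IgG controls. CUT&Tag is named in the series description, while the labels' extraction protocol describes sonication. The lists deposited by the authors give, for each peak, its position, a fold over background (a ratio), −log10 p-values and q-values, a score derived from the q-value, and the summit offset. The lowest −log10 q deposited by the authors was 2.01, 2.00 and 2.01. None of these values was recalculated. Read depth is unknown, since the lists hold no counts.

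Peaks on chromosomes 1 to 22 and X were joined when they shared at least 1 base. Positions came from RefSeq (GRCh38.p14) for 19817 protein-coding genes. A further 153 placed only on alternate or unplaced contigs were left out. The gene table gives no strand, so both gene ends were used, and gene starts came from a separate RefSeq table, in which starts on chromosome 8 were not used. Intervals are 95% Clopper-Pearson, for counting error only. No test was computed, since 6T-CEM has 1 library and regions are not replicates.

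The regions and the 14 lists (264 genes) were chosen with earlier results of these data known. Named were the 12 regions of highest fold and the 12 with most covered bases in the lower Jurkat library, the 10 largest clusters, list genes with a region in the gene or within 25 kb, the 3 regions on each side of the rule, and stretches of at least 500 kb without a 6T-CEM peak. Some genes that these rules reach are not reported here. Alternatives were a −log10 q of 5 or more, lists of equal length, an overlap of 50%, joining within 1 kb, other windows, and leaving out a Jurkat library. The scripts were tested on simulated data: all 10000 regions made were classed correctly, and distances recounted for 1005 regions of chromosome 21 did not differ. Software was Python 3.11.15, pandas 2.3.3, SciPy 1.17.1, NumPy 2.4.6 and matplotlib 3.10.9.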

Additional observations from a re-analysis of the deposited data

Results flagged for a closer look

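6T-CEM had 255 peaks on alternate contigs of chromosome 6, which hold other haplotypes of the HLA region, and Jurkat replicates 1 and 2 had 155 and 227. They are outside the chromosomes used for the regions, so they appear here as data that no comparison reads. The 10 Jurkat-only regions between the HLA genes lie on the reference chromosome beside these copies. Whether a 6T-CEM signal of the same place was assigned to an alternate contig was not tested.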

How the results depend on the processing

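The number of Jurkat-only regions stayed within 1.5 times of 1586 with a −log10 q of 5 or more (1061), lists of equal length (2321), an overlap of 50% (1515), peaks within 1 kb joined (1243) and the blank stretches left out (1535). It was 831 for regions more than 10 kb from every 6T-CEM peak, an alternative chosen after seeing the data. Leaving out a Jurkat library gave 4532 to 13759 regions, since the rule then rests on 1 list. The share of both-Jurkat regions without 6T-CEM, 15.5%, was 29.3% at equal length, 13.9% with peaks within 1 kb joined and 30.3 to 46.0% without 1 library. The gene-end share, 30.1%, was 41.0% with a −log10 q of 5 or more, 37.8% at equal length, 34.6% with peaks within 1 kb joined, 35.4% with a window of 2.5 kb, 37.9% beyond 10 kb from 6T-CEM peaks and 11.2 to 31.0% without 1 library, the lowest being without replicate 1. Clusters, 60 in all, numbered 25 with a −log10 q of 5 or more, 27 with peaks within 1 kb joined, 98 when joined at 50 kb, 31 beyond 10 kb from 6T-CEM peaks, and 262 to 1285 without 1 library. The share in blank stretches, 3.22%, was 6.49% with 5 peaks per stretch, 6.14% beyond 10 kb and 1.54 to 5.01% without 1 library. These settings make smaller or larger sets of regions, and the cause of the shifts was not tested. Of 70 named genes, 52 kept bases in Jurkat-only regions with a −log10 q of 5 or more, 63 at equal length, 66 with an overlap of 50% and 60 with peaks within 1 kb joined, where CD1A, CD1C, CD2, ETS1, ETV6, LAT, PTPN6, RUNX1, TAL1 and TCF3 lost theirs. Without the blank stretches PMEPA1, PRKCA and SYK lost theirs, and beyond 10 kb 34 kept some. No paired analysis was possible because 6T-CEM has 1 H3K27ac library and replicate numbers are shared only by the H3K27ac and IgG libraries of Jurkat, of which the latter were not analysed here.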
